A study of Mus musculus with 9 samples.

Results

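Solute carriers are membrane proteins that move amino acids, sugars, metals, ions, vitamins and nucleotides across the plasma membrane and across the membranes of organelles. This account covers the 135 solute carrier genes that were expressed in mouse oocytes at metaphase II, where a mature egg pauses until fertilisation. A gene was taken when its symbol began with Slc and a number and when its level was at least 1 FPKM (fragment counts corrected for gene length and for library size) in at least 3 of the 9 libraries. The deposited table held 22526 genes, of which 312 were Slc genes under this rule, with Slc12a8 left out. The other 177 Slc genes stayed below the threshold. Slc25a30, Slc6a21 and Slc6a7 lay just inside it, where the third highest library had 1.03, 1.05 and 1.05 FPKM, and Slc17a6, Slc6a20b and Slc24a2 just outside, with 0.904, 0.879 and 0.811 FPKM. The members were thus chosen by their measured FPKM, without regard to group, and their being detected is no result. No member passed through the libraries of 1 group alone (0 of 135), and 100 members were at 1 FPKM or more in all 9 libraries.

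The study compared matured oocytes from 3 groups of 3 libraries, labelled young, aged and supplemented with nicotinamide mononucleotide (NMN), from which cells make the coenzyme NAD, and asks whether NMN counters the decline of oocyte quality with maternal age. All mice were of the outbred ICR strain and all oocytes were at metaphase II. The labels give neither the ages, the dose or route of NMN, the age of the NMN group, nor the number of oocytes or mice behind a library. The p-values therefore rest on the spread among these libraries alone, and that spread may be technical.

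Oocytes use little glucose directly and rely on pyruvate, which monocarboxylate carriers bring in. Growing oocytes receive many amino acids through gap junctions from the surrounding cumulus cells, whereas mature oocytes and early embryos use their own carriers, among them a glycine carrier for the control of cell volume. Zinc enters through Slc39 carriers, and its accumulation during maturation is needed to hold the egg at metaphase II. In the mitochondrial inner membrane, Slc25 carriers exchange ADP for ATP and import phosphate, NAD, folate, glutathione and amino acids.

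Depth, estimated from the spacing of the low values, was about 16280000 to 19250000 reads per library, so a gene of 2 kb at 1 FPKM rested on about 32.6 to 38.5 reads. Within a group, pairs of libraries correlated at 0.951 to 0.99 over all genes of the table on the log2(FPKM + 1) scale. Pairs from different groups correlated at 0.937 to 0.985, so the 2 ranges overlapped. Aged replicate 2 correlated at 0.951 and 0.958 with aged replicates 1 and 3, and at 0.963 with NMN replicate 1. All 10 oocyte markers were in the table, with a sum of 6690 to 9993 FPKM per library. Of 13 cumulus and granulosa cell markers, 10 were in the table and none was at 0 in every library. Their sum was 21.5 FPKM in aged replicate 2 and 4.39 to 7.78 in the other 8 libraries. Ptx3, Inha, Fst, Tnfaip6 and Foxl2 were above 0 only in aged replicate 2, and Inhba, Fshr and Has2 were highest there. Cyp19a1 went the other way, at 3.03 FPKM in aged replicate 2 against 3.05 to 6.21 in the other 8 libraries. Kitl, at 0.759 FPKM, lay within their range of 0.579 to 3.25. Aged replicate 2 also held the highest value of 23 members (17.0%) and the lowest of 45 (33.3%). Of all 9168 genes at 1 FPKM or more in 3 libraries, it held the highest value of 27.1% and the lowest of 21.6%. The part of cumulus cell RNA in this was not tested, and calls and named differences that aged replicate 2 alone changed by over 1.5 times are given with and without it.

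Among the members, 4 bear the name of a neighbour or partner and are no carriers themselves: Slc7a6os, Slc4a1ap, Slc9a3r1 and Slc9a3r2. The 131 transporters fell into 6 groups by substrate, with 27 for amino acids, peptides and amines, 23 for sugars and nucleotide sugars, 15 for metals, 20 for inorganic ions, 20 for monocarboxylates, nucleosides, vitamins and lipids, and 26 of the Slc25 family. Most were modest transcripts, with a median level of 4.19 FPKM against 5.42 for all genes that met the same threshold. A mean of at least 10 FPKM was reached by 39 members (28.9%) and by 35.8% of those genes, and a mean of at least 100 FPKM by 5 members. The members together made up 0.535% (aged replicate 2) to 0.882% (NMN replicate 2) of all FPKM in a library.

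**Figure D1:**
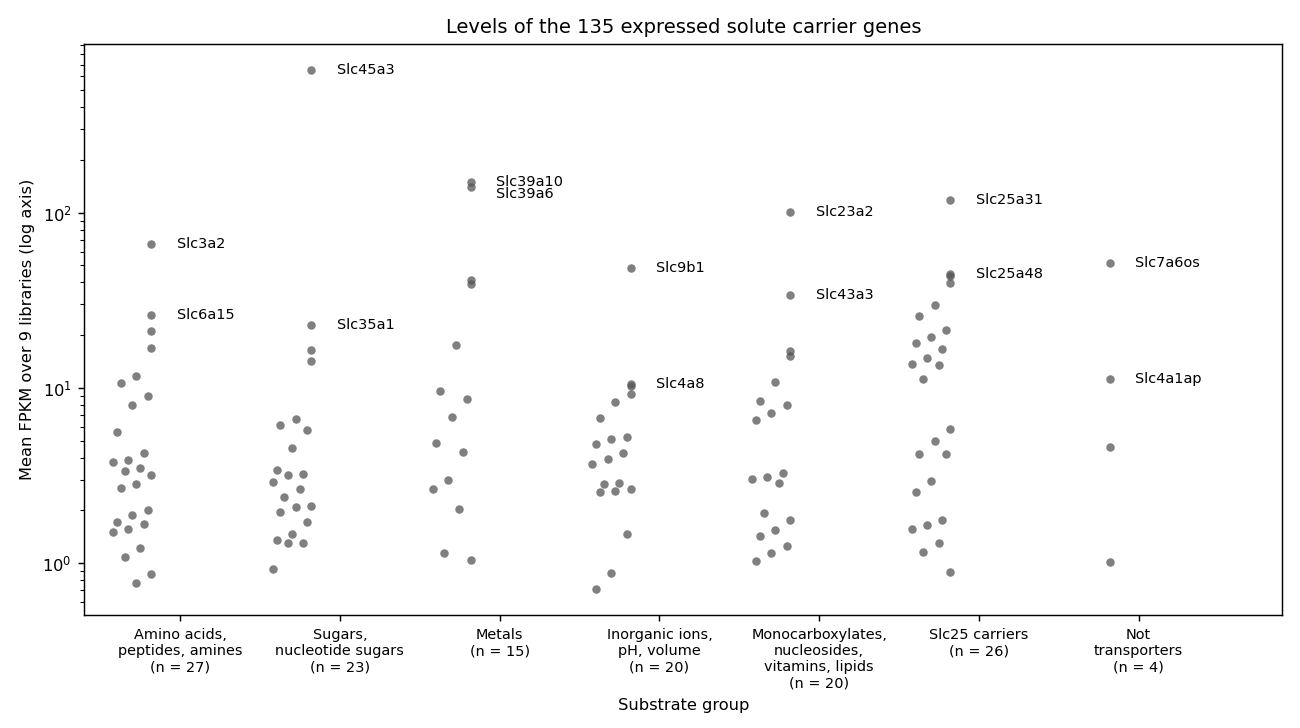
Mean FPKM over the 9 libraries (log axis) of each of the 135 expressed solute carrier genes, 1 point per gene, arranged by substrate group with the 2 highest of each group named. Slc45a3 stands above all others, followed by Slc39a10, Slc39a6, Slc25a31 and Slc23a2.

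The member with the highest level was Slc45a3 (ENSMUSG00000026435), of a family of proton-coupled sugar carriers. It was at 661, 684 and 890 FPKM in young, 571, 265 and 760 in aged, and 461, 878 and 700 in NMN replicates 1 to 3. The groups overlapped and the 9 libraries spanned a wide range, with aged replicate 2 lowest. This transcript alone made up as much as 35.5% of the summed FPKM of all members, and 13.5% of its exon length overlaps the gene model Gm29103 on the same strand. The zinc importers Slc39a10 (149 FPKM over the 9 libraries) and Slc39a6 (140) came next. Slc39a10 was at 161 ± 6.40 FPKM in young, 137 ± 25.3 in aged and 150 ± 7.02 with NMN (SD, n = 3). Slc39a6 was at 144 ± 4.38, 131 ± 12.6 and 145 ± 14.1 FPKM (SD, n = 3). For both, aged replicate 2 was the lowest of the 9 libraries, at 110 and 118 FPKM.

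Other genes among the 3 highest of their substrate group were lower. Slc9b1, of the sodium-proton exchanger family, averaged 48.2 FPKM and ranged from 29.2 in young replicate 3 to 73.6 in aged replicate 2, with all 3 groups overlapping. The purine base carrier Slc43a3 averaged 33.9 FPKM and the sodium-bicarbonate carrier Slc4a8 10.52 FPKM. Slc35a1, which brings CMP-sialic acid into the Golgi, was even across the groups, at 22.7 ± 1.41 FPKM in young, 23.6 ± 1.91 in aged and 22.5 ± 3.92 with NMN (SD, n = 3). Slc35a4, of the same family, averaged 16.5 FPKM, but a near-identical copy, Gm5866, makes its level uncertain. Slc15a5, of the peptide carrier family, averaged 21.1 FPKM. Of the genes that are no carriers, Slc7a6os was the most abundant, at 47.6, 44.2 and 41.05 FPKM in young and 68.3, 55.1 and 57.2 in aged replicates 1 to 3, without overlap (limma adjusted p = 0.24).

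Slc25a31, the ADP/ATP carrier of germ cells, averaged 119 FPKM, and Slc23a2, the sodium-coupled vitamin C carrier, 101 FPKM. Slc3a2, the heavy chain that brings several amino acid exchangers to the cell surface, was at 66.3 FPKM. Its light chain partners were lower, with 9.003 FPKM for the cystine importer Slc7a11 and 2.69 for the leucine carrier Slc7a5. The cationic amino acid carrier Slc7a1, which works without Slc3a2, was at 2.83 FPKM. The tubulin genes share a stretch with the annotated Slc7a11 transcript, so that level is uncertain. Slc6a9, the glycine carrier of volume control, was at only 1.28 ± 0.38 FPKM in young, 1.70 ± 0.82 in aged and 1.73 ± 0.73 with NMN (SD, n = 3), and 27.8% of its exon length overlaps Ccdc24 on the opposite strand. The taurine carrier Slc6a6, at 10.7 FPKM, and the amino acid carrier Slc6a15, at 26.2 FPKM, stood above it. Among monocarboxylate carriers Slc16a1 was at 8.45 FPKM, while Slc16a3, known for lactate export in glycolytic cells, was below the threshold. It was at 0.797 FPKM in aged replicate 2 and at most 0.0226 in the other 8 libraries. The glutamine carrier Slc1a5 was likewise at 0.427 FPKM in aged replicate 2 and at most 0.101 elsewhere.

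Between aged and young oocytes, 2 of the 135 members (1.48%) were called at adjusted p under 0.05 over the 9168 genes tested (limma). Both were higher in the aged group: Slc25a17 and Slc18a2. Of all tested genes, 2.17% were called. Slc25a17 (ENSMUSG00000022404) belongs to the mitochondrial carrier family but sits in the peroxisomal membrane, where it exchanges coenzyme A, FAD and NAD. It was at 25.9, 21.9 and 20.2 FPKM in young replicates 1 to 3 and at 74.4, 44.4 and 72.2 in aged replicates 1 to 3. The groups did not overlap, and the mean was 2.81 times as high in aged oocytes (22.7 ± 2.90 against 63.7 ± 16.7 FPKM, SD, n = 3). On the log2(FPKM + 1) scale, which understates changes of low genes, the difference was 1.40 ± 0.23 (SE, limma adjusted p = 0.0194). Without aged replicate 2 it was 1.67, with an adjusted p = 0.00244 (limma). Leaving out young replicate 1, 2 or 3 or aged replicate 3 ended the call, with adjusted p = 0.0598, 0.0895, 0.105 and 0.0755 (limma).

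Slc18a2 (ENSMUSG00000025094), the vesicular carrier that loads monoamines such as serotonin and dopamine into vesicles, was at 8.74, 7.29 and 10.03 FPKM in young and at 17.5, 16.4 and 16.4 in aged replicates 1 to 3. The 3 aged libraries lay close together and above every young library, at a mean 1.93 times as high. The difference was 0.86 ± 0.17 on the log2 scale (SE, limma adjusted p = 0.0372). The call ended without young replicate 1, 2 or 3 (limma adjusted p = 0.108, 0.15 and 0.103), without aged replicate 1 or 3 (0.0847 and 0.0965) and without NMN replicate 2 or 3 (0.0509 and 0.0628). The serotonin carrier of the plasma membrane, Slc6a4, was at 2.28 ± 0.50 FPKM in the young and 2.17 ± 0.63 in the aged group (SD, n = 3), and these ranges overlapped.

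The 2 calls between aged and young are 1.48% of the members, where 2.17% of all tested genes were called, and in the higher direction 1.32% of all tested genes were. For 28 members (20.7%) every aged library lay on the same side of every young one, 12 higher and 16 lower, against 23.8% of all tested genes (12.6% higher, 11.2% lower). At an unadjusted p under 0.05 there were 26 members (19.3%) against 18.2%. The median difference was -0.07 on the log2 scale over the members and -0.01 over all tested genes. By substrate group the median ran from -0.23 for inorganic ion carriers and -0.19 for metal carriers to 0.10 for amino acid carriers. Both ends of that range shifted when aged replicate 2 was left out. Without it the medians ran from -0.17 for metal and -0.15 for sugar carriers, over -0.14 for inorganic ion carriers, to 0.07 for amino acid carriers and 0.10 for those of monocarboxylates, nucleosides, vitamins and lipids.

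**Figure D2:**
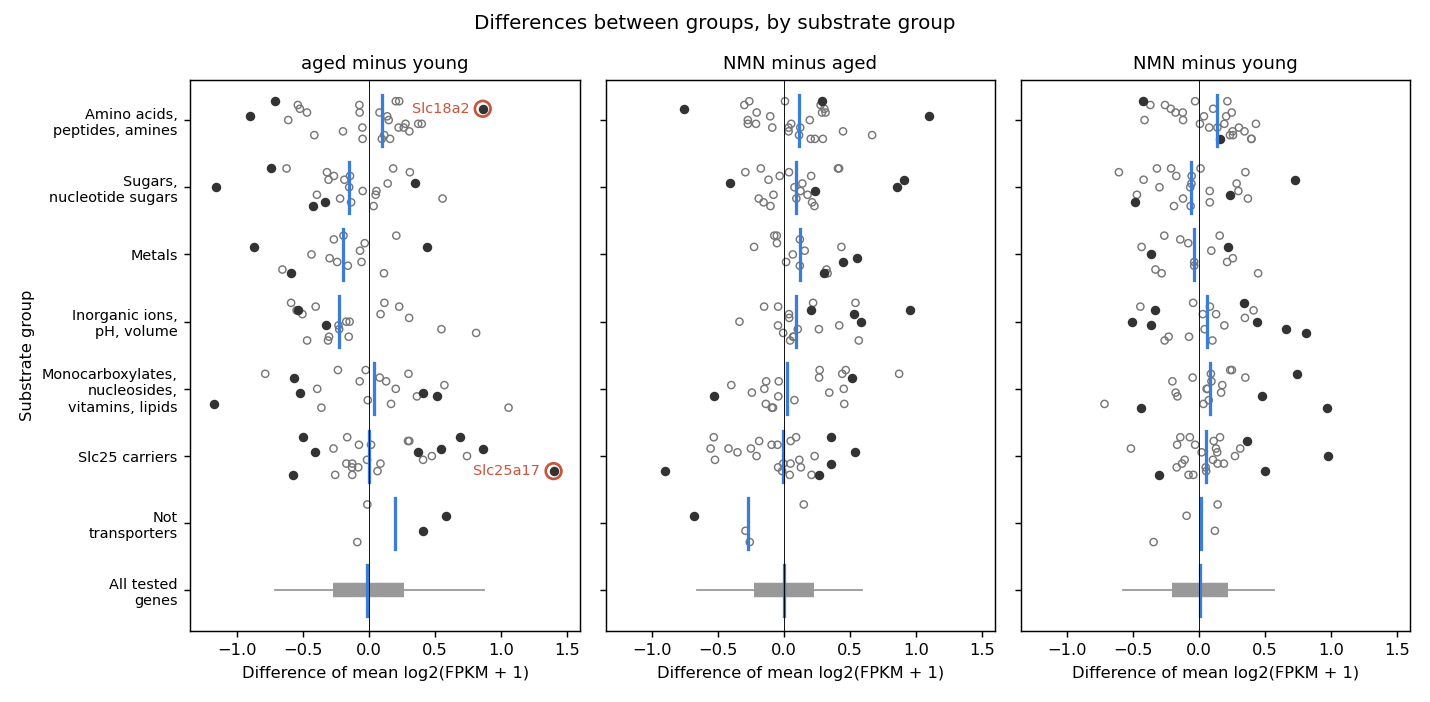
Difference of group means of log2(FPKM + 1) for each of the 135 members in the 3 comparisons, by substrate group. Filled points are members whose groups do not overlap, red rings mark adjusted p under 0.05, blue lines are medians, and the grey bar and line span the 25th to 75th and 5th to 95th percentiles of all 9168 tested genes. Slc25a17 and Slc18a2 are the ringed genes, both in aged minus young. Unringed points also lie away from 0, such as Slc44a4 (-1.17) and Slc14a1 (1.06) in that panel.

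The 250 bases before the RefSeq transcription start (build GRCm38.p6) are shown for both called members and, for comparison, for the germ-cell ADP/ATP carrier Slc25a31 and for Slc45a3, the most abundant member. Each runs 5′ to 3′ along the gene's own strand. Capitals mark the E-box CANNTG, which basic helix-loop-helix factors of the oocyte can bind, and the GC box GGGCGG on either strand. The start used is the first that RefSeq lists, which need not be the one used in oocytes.
Slc25a17, chr15:81360766-81361015, minus strand: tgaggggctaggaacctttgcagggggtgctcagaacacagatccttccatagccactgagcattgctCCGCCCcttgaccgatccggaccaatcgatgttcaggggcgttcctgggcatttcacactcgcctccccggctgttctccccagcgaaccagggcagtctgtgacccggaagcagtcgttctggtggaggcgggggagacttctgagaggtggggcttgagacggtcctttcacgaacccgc
Slc18a2, chr19:59260628-59260877, plus strand: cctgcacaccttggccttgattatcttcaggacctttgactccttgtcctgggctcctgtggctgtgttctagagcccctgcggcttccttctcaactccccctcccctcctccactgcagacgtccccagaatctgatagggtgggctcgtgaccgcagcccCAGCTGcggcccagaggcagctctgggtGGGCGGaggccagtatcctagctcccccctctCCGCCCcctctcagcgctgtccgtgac
Slc25a31, chr3:40708621-40708870, plus strand: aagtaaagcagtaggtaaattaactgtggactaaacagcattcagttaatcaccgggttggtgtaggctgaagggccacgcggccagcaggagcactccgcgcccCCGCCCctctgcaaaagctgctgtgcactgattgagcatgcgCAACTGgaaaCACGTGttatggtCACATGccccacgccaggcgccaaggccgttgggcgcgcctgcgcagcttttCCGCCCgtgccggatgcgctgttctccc
Slc45a3, chr1:131962665-131962914, plus strand: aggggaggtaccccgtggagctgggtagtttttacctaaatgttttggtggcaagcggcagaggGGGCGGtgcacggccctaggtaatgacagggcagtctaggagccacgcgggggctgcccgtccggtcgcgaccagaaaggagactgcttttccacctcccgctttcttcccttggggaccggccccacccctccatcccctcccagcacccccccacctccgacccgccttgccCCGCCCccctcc

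These windows held 0 E-boxes and 1 GC box for Slc25a17, 1 and 2 for Slc18a2, 3 and 2 for Slc25a31, and 0 and 2 for Slc45a3. Promoters were listed for 107 of the 135 members. An E-box was in the window of 69.2% of these 107, of 57.2% of the 6635 tested genes with a listed promoter, and of 66.0% of all 27025 listed promoters of this length. For the GC box the shares were 60.7%, 58.5% and 32.9%, and for TATAAA on either strand 6.54%, 6.53% and 13.0%. The 2 motifs shown can share a letter where they meet. A match describes the letters of the window, not a bound site.

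Within the Slc25 family, 8 of 26 members had aged and young libraries that did not overlap (30.8%, against 23.8% of all tested genes), 5 higher and 3 lower in the aged group. The higher ones were Slc25a17, the ADP/ATP carriers Slc25a31 and Slc25a5, the S-adenosylmethionine carrier Slc25a26 and the citrate carrier Slc25a1. The lower ones were the NAD carrier Slc25a51, the phosphate carrier Slc25a3 and Slc25a44, a carrier of branched-chain amino acids. Only Slc25a17 passed the test among them.

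Slc25a31 (ENSMUSG00000069041) was at 93.0, 97.2 and 104 FPKM in young, 160, 115 and 168 in aged, and 103, 116 and 112 in NMN replicates 1 to 3. Aged replicates 1 and 3 stood above all other libraries, while aged replicate 2 lay within the NMN range. The difference between aged and young was 0.55 ± 0.20 on the log2 scale (SE, limma adjusted p = 0.179), and without aged replicate 2 this gene passed the test. Slc25a5 (ENSMUSG00000016319), an ADP/ATP carrier of most tissues, was at 10.1, 8.84 and 9.37 FPKM in young and 17.7, 22.5 and 15.2 in aged replicates 1 to 3, with a difference of 0.87 ± 0.20 (SE, limma adjusted p = 0.0596). Copies of the Slc25a5 transcript, Gm5529 and Gm5560, are 96.8% and 98.3% identical to it over 900 and 887 bases, so its reads could be split with them. Slc25a4, the third ADP/ATP carrier expressed here, overlapped between the groups, at 12.3 ± 3.46 FPKM in young and 15.5 ± 4.24 in the aged group (SD, n = 3).

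Together the 3 ADP/ATP carriers summed to 119, 118 and 122 FPKM in young, 193, 157 and 194 in aged, and 134, 137 and 139 in NMN replicates 1 to 3. The groups did not overlap, and Slc25a31 supplied most of each sum. Over all 26 Slc25 members the sum was 397 to 425 FPKM in the young, 469 to 551 in the aged and 461 to 462 in the NMN group. With Slc25a31 and Slc25a17 left out, the aged (294 to 311 FPKM) and young libraries (278 to 306) overlapped, and the NMN libraries (311 to 327) lay above every young one. After division by the scaling factors of the fit, the aged sums (448 to 553) stayed above the young ones (407 to 430) but overlapped those of the NMN group (444 to 471). No test is given for these sums, whose members were chosen with results known.

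**Figure D3:**
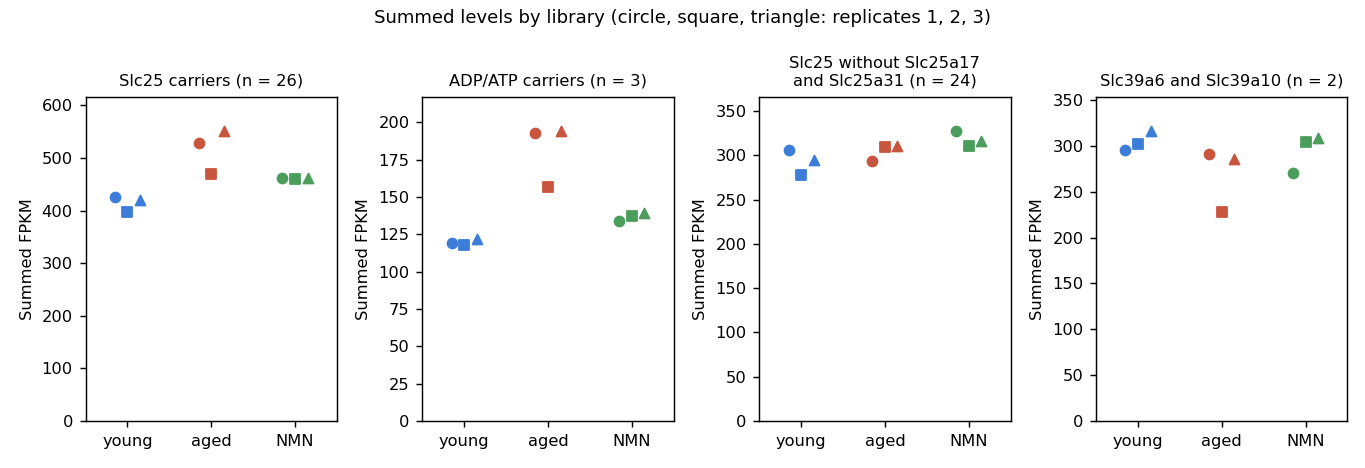
Summed FPKM per library (1 point each, axes from 0) of the 26 Slc25 members, of the ADP/ATP carriers Slc25a4, Slc25a5 and Slc25a31, of the Slc25 members without Slc25a17 and Slc25a31, and of the zinc importers Slc39a6 and Slc39a10. Aged libraries lie above young ones in the first 2 panels and overlap them in the third, and aged replicate 2 is lowest for the zinc importers, at 228 FPKM.

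Slc25a51 (ENSMUSG00000045973), which brings NAD into mitochondria, was at 5.42, 6.46 and 6.37 FPKM in young, 2.89, 4.37 and 4.38 in aged, and 4.79, 4.79 and 5.08 in NMN replicates 1 to 3. All 3 groups were separate, with NMN libraries between the others, but no difference passed the test (limma adjusted p = 0.144 between aged and young, 0.616 between NMN and aged, and 0.706 between NMN and young). Slc25a36, a pyrimidine nucleotide carrier, was low, at 1.14 ± 0.31, 1.20 ± 0.51 and 1.15 ± 0.50 FPKM for young, aged and NMN (SD, n = 3). Slc25a3 was at 6.73 ± 0.26, 4.56 ± 0.64 and 6.19 ± 0.28 FPKM (SD, n = 3; limma adjusted p = 0.177 for aged against young). Slc25a48 and the glycine carrier of haem synthesis Slc25a38, at 44.5 and 43.4 FPKM over the 9 libraries, overlapped between aged and young libraries.

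Several carriers of nutrients had separate aged and young libraries without passing the test. Slc38a10, of a family of neutral amino acid carriers, was at 1.88, 1.99 and 1.39 FPKM in young, 0.422, 0.440 and 0.598 in aged, and 2.30, 2.87 and 1.61 in NMN replicates 1 to 3. All aged libraries lay below every other library, and the difference of -0.90 ± 0.21 between aged and young missed the threshold (SE, limma adjusted p = 0.0547), as did that of 1.10 ± 0.21 between NMN and aged (adjusted p = 0.0846). A smaller pseudocount of 0.1 brought the former to an adjusted p = 0.0386 (limma). The aged values lay below 1 FPKM, where fewer reads stand behind a value than at the young and NMN levels. Slc38a10 thus met the threshold only through its young and NMN libraries, so its separation from the aged ones is not independent of that rule. In addition, 5.72% of the exon length overlaps Gm11769 on the opposite strand. The lysosomal glutamine carrier Slc38a7 was at 5.64 ± 0.47 FPKM in young, 3.11 ± 0.40 in aged and 4.10 ± 0.72 with NMN (SD, n = 3; limma adjusted p = 0.0806 for aged against young).

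The glucose carrier Slc2a1 (ENSMUSG00000028645) was at 15.6, 16.3 and 21.6 FPKM in young, 11.95, 8.48 and 10.9 in aged, and 11.4, 16.9 and 15.5 in NMN replicates 1 to 3. The aged libraries lay below the young ones, and the NMN libraries overlapped both (-0.74 ± 0.23 for aged against young, SE, limma adjusted p = 0.138). Slc16a1, which carries pyruvate and lactate, was at 9.77 ± 0.42, 6.71 ± 1.64 and 8.85 ± 1.49 FPKM for young, aged and NMN (SD, n = 3; adjusted p = 0.249, limma, aged against young). The phosphate importer Slc20a1 was at 10.1 ± 0.41, 6.75 ± 0.37 and 8.08 ± 0.64 FPKM (SD, n = 3; limma adjusted p = 0.124). Slc35f6 ranged from 6.58 to 8.90 FPKM in young and from 1.29 to 4.17 in aged libraries, the lowest being aged replicate 2 (limma adjusted p = 0.113). Its difference was -1.16 on the log2 scale and -0.75 without that library. Slc44a4, of the choline carrier family, was at 2.75 to 3.44 FPKM in young and at 1.35, 0.0197 and 1.56 in aged replicates 1 to 3 (limma adjusted p = 0.141), so aged replicate 2 was again lowest. Without it the difference was -0.74 in place of -1.17 on the log2 scale. The cystine importer Slc7a11 was at 10.3 ± 1.24 FPKM in the young and 7.41 ± 1.99 in the aged group, whose ranges overlapped (SD, n = 3; limma adjusted p = 0.338).

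**Figure D4:**
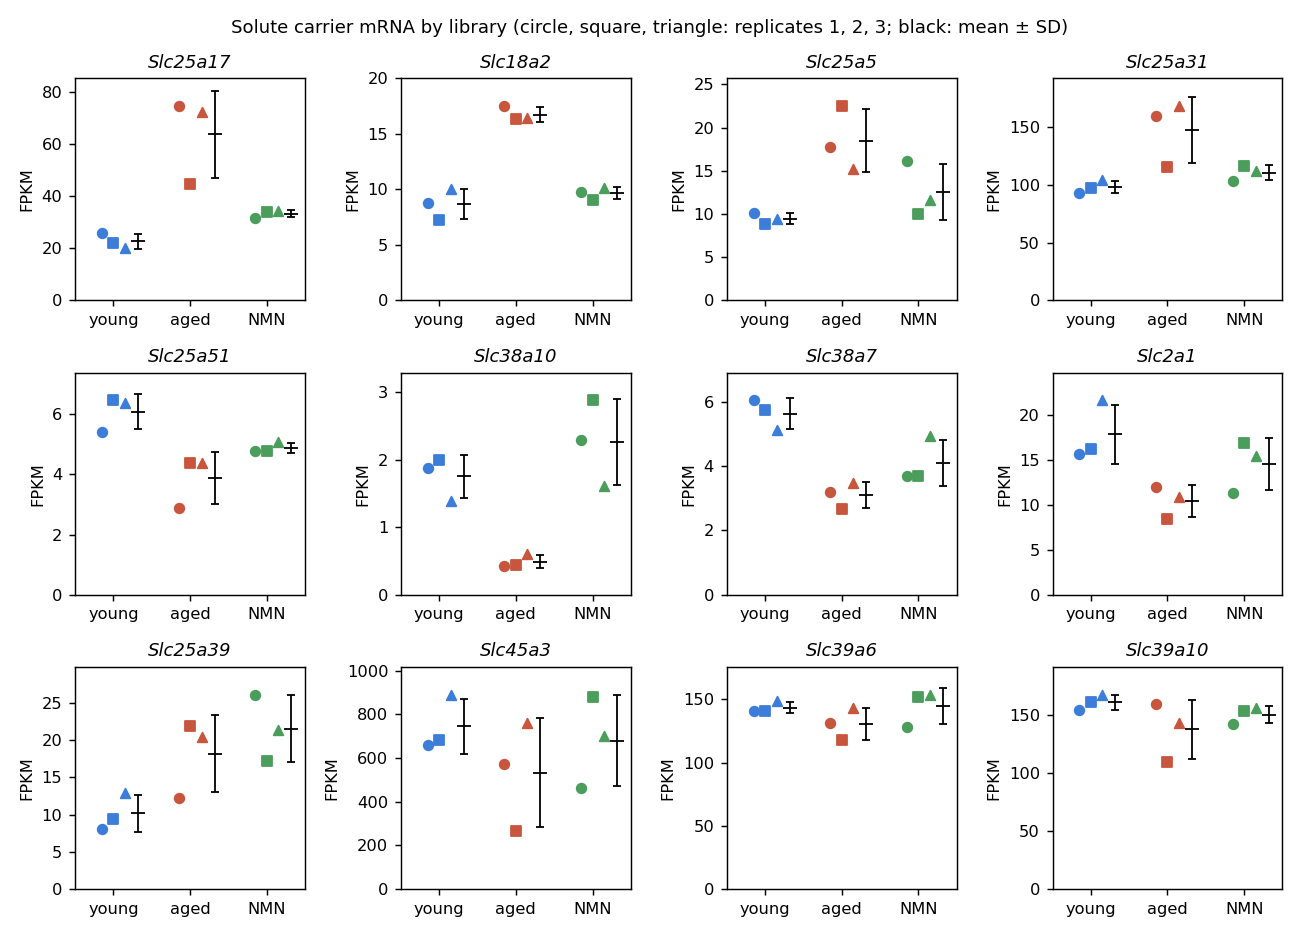
FPKM of 12 members in each of the 9 libraries (axes from 0), with the mean ± SD of each group of 3 in black. Slc25a17 and Slc18a2 are higher in all 3 aged libraries than in any other library, Slc38a10 is lower in all of them, and Slc45a3 and Slc39a10 have their lowest value in aged replicate 2.

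For the zinc exporter Slc30a1 the groups gave 2.60 ± 0.41 FPKM in young and 2.13 ± 0.70 in the aged group, and for the sodium-bicarbonate carrier Slc4a7 5.93 ± 0.32 and 4.72 ± 1.01 (SD, n = 3), with overlap for Slc30a1 and for Slc4a7. Slc30a3, a vesicular zinc carrier chosen after its values were seen, was at 34.1, 29.9 and 33.3 FPKM in young and 41.7, 42.8 and 51.4 in aged replicates 1 to 3, without overlap (limma adjusted p = 0.19). Slc4a2, an anion exchanger of pH control, stayed under the threshold with at most 0.451 FPKM. The copper carrier Slc31a2 was at 48.4 ± 5.82, 36.9 ± 9.80 and 38.5 ± 3.28 FPKM for young, aged and NMN (SD, n = 3). FPKM are relative to the library, and the libraries are bulk measures of an unstated number of oocytes. Fewer cells with a transcript and a smaller share of it per cell therefore cannot be told apart for any of these levels.

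In NMN against aged oocytes no member was called (0 of 135, limma), where 0.218% of all tested genes were. At an unadjusted p under 0.05 there were 17 members (12.6%) against 11.2% of all tested genes. The groups did not overlap for 22 members (16.3%), 17 higher and 5 lower with NMN, against 15.6% of all tested genes (9.09% higher, 6.51% lower). This comparison shares the aged libraries with that of aged against young, so the values of a gene in the 2 comparisons are not independent. Both genes called higher in aged against young had lower values in every NMN library than in any aged one. Neither of these differences passed the test. Slc25a17 was at 31.6, 34.0 and 34.1 FPKM in NMN replicates 1 to 3, below every aged and above every young library (-0.91 ± 0.23 against aged, SE, limma adjusted p = 0.174). Without aged replicate 2 that difference was -1.19 and passed the test (limma adjusted p = 0.0232). Slc18a2 was at 9.77, 9.07 and 10.1 FPKM in NMN replicates 1 to 3, below every aged library and overlapping the young ones (-0.76 ± 0.17 against aged, SE, limma adjusted p = 0.125).

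Other members whose NMN and aged libraries were separate had small differences. Slc25a44 was at 30.2 ± 3.48 FPKM in NMN and 20.1 ± 1.48 in aged libraries, and the choline carrier Slc44a2 at 17.1 ± 2.49 and 11.5 ± 1.89 (SD, n = 3; limma adjusted p = 0.288 and 0.375). Slc24a3, which exchanges sodium for calcium and potassium, was at 8.77 ± 1.46 FPKM in NMN, 5.44 ± 1.01 in aged and 6.02 ± 1.06 in young libraries (SD, n = 3; limma adjusted p = 0.371 for NMN against aged). The nucleotide sugar carrier family member Slc35c2 was at 4.94 ± 1.23, 2.17 ± 0.94 and 2.57 ± 1.10 FPKM (SD, n = 3; limma adjusted p = 0.291) in the same order. The scaffold protein gene Slc9a3r1, no carrier, was at 3.59 ± 0.98 FPKM in NMN and 6.47 ± 2.68 in aged libraries, and Slc35f6 at 6.35 ± 1.76 and 3.16 ± 1.63 (SD, n = 3; limma adjusted p = 0.39 for each). Each rested in part on 1 aged library: the log2 difference of Slc9a3r1 was -0.68 and -0.41 without aged replicate 3, and that of Slc35f6 was 0.86 and 0.44 without aged replicate 2.

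In NMN against young oocytes no member was called either (0 of 135, limma), with 0.0764% of all tested genes called, which are 7 genes. With the replicate number as a block, 1 gene was called and again 0 members (limma). At an unadjusted p under 0.05 there were 8 members (5.93%) against 8.25% of all tested genes, and the groups did not overlap for 22 (16.3%), 14 higher and 8 lower with NMN, against 16.6% (9.58% higher, 6.99% lower). Slc25a39, which carries glutathione into mitochondria, was at 26.1, 17.1 and 21.4 FPKM in NMN and 8.12, 9.45 and 12.9 in young replicates 1 to 3. All NMN libraries lay above the young ones, by 0.98 ± 0.25 on the log2 scale (SE, limma adjusted p = 0.285), and the aged libraries, at 12.3, 21.9 and 20.4 FPKM, overlapped both. The urea carrier Slc14a1 was at 23.7, 17.0 and 15.9 FPKM in NMN, 13.5, 6.68 and 7.32 in young, and 20.03, 28.5 and 13.0 in aged replicates 1 to 3. Its NMN and young libraries were separate (limma adjusted p = 0.404), whereas aged replicate 3 lay within the young range.

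The folate carrier Slc19a1 was at 8.67 ± 0.35 FPKM in NMN and 4.71 ± 1.31 in young libraries, and the lysosomal nucleoside carrier Slc29a3 at 1.69 ± 0.34 and 0.898 ± 0.219 (SD, n = 3; limma adjusted p = 0.513 and 0.543). Slc26a5 (4.34 ± 0.96 and 1.98 ± 0.51 FPKM) and the potassium-chloride carrier Slc12a5 (3.26 ± 1.47 and 1.59 ± 0.55) were also separate without a call (SD, n = 3; limma adjusted p = 0.582 and 0.602). The log2 difference of Slc12a5 was 0.66 with all libraries and 0.40 without NMN replicate 1. Slc9a4, a sodium-proton exchanger, was at 0.394 ± 0.245 FPKM in NMN and 0.951 ± 0.234 in young libraries (SD, n = 3; limma adjusted p = 0.613). The nucleoside carrier of the plasma membrane Slc29a1, which takes up nucleosides such as nicotinamide riboside, stayed below the threshold. It was at 0.46, 0.534 and 0.513 FPKM in NMN, 0.375, 0.552 and 0.3 in aged and 0.1045, 0.1865 and 0 in young replicates 1 to 3, values that were not tested. Slc33a1, the acetyl-CoA carrier of the endoplasmic reticulum, was at 2.84 ± 1.36, 3.01 ± 0.59 and 3.22 ± 1.05 FPKM in NMN, aged and young libraries, and 1136 of its 3548 exon bases overlap Gm26850 on the opposite strand.

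Other genes of membrane transport were taken from a list of 46 that are not named Slc: subunits of the sodium pump, chaperones of monocarboxylate carriers, carriers under other symbols, mitochondrial channels, aquaporins and connexins. Of these, 19 were tested. At adjusted p under 0.05, 0 were called higher and 0 lower in each of the 3 comparisons (limma). Of all tested genes, 2.17% were called in aged against young, 0.218% in NMN against aged and 0.0764% in NMN against young. At an unadjusted p under 0.05 there were 4 of 19 in aged against young, 0 in NMN against aged and 1 in NMN against young, beside 18.2%, 11.2% and 8.25% of all tested genes. The 4 were Vdac1, Aqp9, the organic anion carrier Slco3a1 and Micu2, a regulator of the mitochondrial calcium uniporter. Vdac1, a channel of the mitochondrial outer membrane, was at 6.19, 6.80 and 6.98 FPKM in young, 9.43, 12.5 and 9.69 in aged, and 8.67, 7.80 and 8.63 in NMN replicates 1 to 3. Its aged libraries lay above all others (limma adjusted p = 0.119 for aged against young). The related channels Vdac2 and Vdac3 overlapped between aged and young, with log2 differences of -0.03 and 0.04 (limma adjusted p = 0.962 and 0.929). Micu2 was at 5.76, 4.98 and 6.97 FPKM in young and 2.36, 3.73 and 3.37 in aged replicates 1 to 3, and its difference was -0.76 (limma adjusted p = 0.19). The glycerol and water channel Aqp9 was at 40.4, 48.5 and 47.9 FPKM in young and 34.7, 23.8 and 30.4 in aged replicates 1 to 3, also without overlap (limma adjusted p = 0.197).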

How the data were processed

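Messenger RNA of mouse oocytes was measured in 9 libraries by Smart-seq2 with oligo(dT) priming, per the labels' protocols. The deposited table is called a raw count matrix, but its values are FPKM made by the authors. Bowtie2 2.2.5 and RSEM with build mm9 are named in the submitters' processing notes. Their roles, the annotation and the strand setting are not given in the sources used here. GENCODE M21 gave a symbol for 99.83% of gene identifiers. Exon overlaps and copies (95% identity over 300 bases) come from that annotation, promoters from RefSeq GRCm38.p6, and both are on a later build than mm9. Overlapping exons were found for 40 members and copies for 6. Depth came from genes with 1 transcript of over 1500 bases, whose value times length lay within 0.02 of a whole read for 96.6 to 97.7% of values under 20 reads. The floor of 3 reads in a 2 kb gene is 0.0779 to 0.0921 FPKM, for counting error only.

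FPKM were divided by trimmed-mean factors (30% by ratio, 5% by level). Genes at 1 FPKM or more in 3 libraries (9168) entered limma 3.58.1 (R 4.3.3) on log2(FPKM + 1), with 1 mean per group, a variance trend, robust moderation and Benjamini-Hochberg adjustment over all of them. Levels and overlaps are of deposited FPKM. On simulated data 37 to 44% of log2 changes of 1 and 88 to 92% of changes of 2 were recovered among 9168 genes. These changes were added on the log2(FPKM + 1) scale and only to genes above a minimum mean level. Recovery of changes in the lowest genes was thus not measured. Noise was drawn separately for each gene and library, so a library that stands apart as a whole, such as aged replicate 2, was not simulated. Replicate numbers are tied to no animal or day by the labels. Deviations of same-numbered libraries correlated at 0.497, 0.119 and 0.143 for NMN and young, which were taken as paired, at -0.338, -0.265 and 0.315 for aged and young, and at -0.372, -0.356 and 0.202 for NMN and aged. With the block, 1 of the 9168 genes was called in NMN against young in place of 7, and no member (0) in either fit. The differences and p-values printed for single genes in NMN against young are from the fit without the block.

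Named were called members, the 10 members of smallest p per comparison without overlap, the 3 highest per substrate group, a fixed list and those beside the threshold. Members, lists and motifs were chosen with earlier results of these data known, and the substrate group of 7 genes was corrected after the members were seen. Slc6a4, Slc6a6, Slc7a1, Slc7a5, Slc25a1, Slc25a26 and Slc30a3 are outside that rule and were chosen after their values were seen. Some genes that the rule or the lists name are not reported here.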

Additional observations from a re-analysis of the deposited data

How the results depend on the processing

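The count of 2 called members in aged against young oocytes became 0 with no filter on low values, 0 with a replicate block and 1 with only the compared groups in the fit. It ran from 0 to 3 when 1 library was left out: 0 without young replicate 1, 2 or 3 or aged replicate 3, 1 without NMN replicate 2 or 3, and 3 without aged replicate 2, which added Slc25a31. Without aged replicate 1 it stayed at 2, but Slc26a5 took the place of Slc18a2. A pseudocount of 0.1 gave 3. In NMN against aged the count of 0 ran from 0 to 1, the 1 being Slc25a17 without aged replicate 2. In NMN against young it was 0 throughout, the replicate block included, which took the calls over all genes from 7 to 1. The 30 named differences were picked among members whose groups did not overlap, so leaving out 1 library could hardly reverse them. Their direction was kept in every fit that tested the gene (0 reversed), which is therefore no support for them. Over those fits the difference of Slc25a17 between aged and young lay between 1.23 and 1.67 (limma adjusted p from 0.00244 to 0.105) and that of Slc18a2 between 0.76 and 0.97 (0.0342 to 0.15). With no filter 22526 genes were tested and their adjusted p = 0.0957 and 0.132 (limma). At a minimum of 10 FPKM 43 members remained and 2 were called. Without aged replicate 2 the median difference over the members was 0.00 in place of -0.07 for aged against young, and -0.01 in place of 0.07 for NMN against aged. The mean was under 5 FPKM for 77 of the 135 members, levels at which the log2(FPKM + 1) scale understates changes.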
